A study of Mus musculus with 8 samples.

Results

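The genes described here encode phosphoinositide 3-kinase (PI3K) and the proteins that hold, brake or recruit it in white blood cells. There are 9, namely the catalytic subunits Pik3cd, Pik3ca, Pik3cb and Pik3cg, the regulatory subunits Pik3r1, Pik3r2 and Pik3r5, the phosphatase Inpp5d, and the adaptor Pik3ap1. They were chosen by name, with earlier results of these data known. Of the 17097 mouse genes with at least 1 probe set assigned to a single symbol, these 9 had 22 such probe sets out of 28898, and no probe set named a member beside another gene. Each gene was represented by its brightest probe set, the one with the highest mean over the 8 arrays, and the other probe sets are described beside it.

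Expression was measured on 8 Affymetrix mouse arrays hybridised with total RNA of cultured acute myeloid leukaemia (AML) cells. The 4 arrays labelled Trib1 hi held RNA of a line whose genotype is given as Hoxa9 and Trib1. The 4 arrays labelled Trib1 null held RNA of a line whose genotype is given as Hoxa9 alone. The comparison bears on how Trib1, a pseudokinase that promotes degradation of C/EBP alpha, alters expression in leukaemia driven by the homeobox factor Hoxa9. Both groups share the expressed Hoxa9, an origin in mice with homozygous loss of Trib1, growth in IMDM with 10% fetal bovine serum and IL-3 at 5 ng/ml, and no treatment. The labels name no strain, age or vector. Whether replicate arrays stand for separate cultures is not stated, so the p-values reflect only the scatter among these arrays, which may be technical. If each group is 1 line, then line and Trib1 cannot be told apart.

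PI3K phosphorylates the membrane lipid phosphatidylinositol bisphosphate to the trisphosphate PIP3, which draws AKT, BTK and other proteins with lipid-binding domains to the membrane. A class I enzyme pairs a catalytic p110 subunit with a regulatory subunit that stabilises it and restrains it until a receptor or adaptor is engaged. The delta and gamma catalytic subunits are enriched in white blood cells, and IL-3, on which these cells were grown, acts through a receptor that activates PI3K. The lipid phosphatase SHIP1 removes PIP3 by cutting a phosphate from it, and FOXO transcription factors are shut out of the nucleus when AKT is active.

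Signals are MAS5 intensities, a linear brightness in arbitrary units that is comparable for 1 probe set across arrays but not between probe sets. Differences are given on the log2(intensity + 2.71) scale, as Trib1 hi minus Trib1 null, with limma's standard error (SE) and with p-values adjusted over all 12250 genes tested. A gene was called at an adjusted p under 0.05. Folds were computed after intensities under 500 had been set to 500. Where a group fell under 500 on some arrays, the fold is a bound and is written "at least". Where both groups did, no fold is given. Bulk RNA cannot tell fewer cells of a type from less RNA per cell.

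The arrays differed at low signal. The 90th percentile of intensity lay between 1808 and 1985 on arrays labelled Trib1 hi and between 1899 and 1968 on arrays labelled Trib1 null, whereas the 75th percentile ran from 15.5 to 422 on the Trib1 hi arrays and from 223 to 385 on the Trib1 null arrays. Array Trib1 hi 3 (422) stood apart from Trib1 hi 1, 2 and 4 (17.5, 15.5 and 97.3) at this end and lay nearer the Trib1 null arrays. The GC25 background controls averaged 12.2, 11.4, 379 and 15.1 on the Trib1 hi arrays, against 335, 149, 264 and 207 on the Trib1 null arrays. Except on Trib1 hi 3, low signal therefore differed with the group. Rank correlations were 0.973 to 0.979 within Trib1 hi, 0.957 to 0.967 within Trib1 null and 0.943 to 0.952 between the groups. Transcripts added to every sample as controls also differed. Of 12 control probe sets with a Trib1 null mean of 500 to 5000, 5 were lower on every Trib1 hi array than on any Trib1 null array, all of them for dap, and the 12 differences ran from -1.26 to 0.20. The 6 controls over 5000 differed by 0.01 to 0.06. The part of these shifts in the results was not tested, so each tested member is also set beside the genes of like signal, those whose mean log2 value lay within 0.5 of its own.

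The Trib1 probe set read against the labels, but at dim signals. It read 7.13, 7.13, 122 and 5.92 on arrays labelled Trib1 hi, against 304, 223, 212 and 206 on arrays labelled Trib1 null. The difference was -3.72 (adjusted p = 0.0498), with every array below 500. Differences are mostly negative at such signals. Genes of like signal to Pik3r2, a similarly dim member, had a median of -2.02 and quartiles of -2.60 and -1.45. Hoxa9 read 14.3, 14.3, 391 and 10.0 on the Trib1 hi arrays, against 969, 1075, 1031 and 1020.1 on the Trib1 null arrays, at least 2.05-fold lower in Trib1 hi (adjusted p = 5.15e-06). Whether these probes lie in the deleted part of Trib1, or in the copies expressed in these cells, was not tested. Groups are therefore called by their labels throughout, and every direction below is one between libraries so labelled. Of 10 myeloid and leukaemia markers, all exceeded 500 on some array, with 4 called higher and 4 lower in Trib1 hi. Those higher were Mpo (at least 10.3-fold), Elane (5.58-fold), Cebpa (1.80-fold) and Kit, for which no fold is given. Those lower were Itgam (3.08-fold), Cd33 (at least 2.94-fold), Spi1 (at least 1.61-fold) and Lyz2 (1.47-fold). The 2 that were not called were Ptprc, the pan-leukocyte phosphatase CD45, at 12539 ± 1998 in Trib1 hi and 13069 ± 1303 in Trib1 null, and Csf2rb, the beta chain of the IL-3 receptor, at 11497 ± 2117 and 12751 ± 1218 in the same groups (SD, n = 4 each). The 5 measured B cell markers and the 5 measured T and NK cell markers were below 500 on every array, with summed signals of 17.4 to 233 in Trib1 hi against 13.8 to 65.4 in Trib1 null for B cells, and of 20.5 to 315 in Trib1 hi against 19.1 to 194 in Trib1 null for T and NK cells. Erythroid and megakaryocytic markers summed to 68.0 to 1204 in Trib1 hi against 156 to 570 in Trib1 null, and fibroblast and endothelial markers to 1597 to 1743 in Trib1 hi against 2077 to 2363 in Trib1 null. The last sum is almost wholly Pecam1, which blood cells also express (1610 ± 109.6 in Trib1 hi and 2231 ± 141 in Trib1 null, SD, n = 4 each), and the other 5 were below 500 on every array. Mast cell and basophil markers moved with the groups, since their summed signal was 20468 to 29369 in Trib1 hi and 5950 to 6597 in Trib1 null. Only 2 of these 6 exceeded 500, of which Cpa3, a mast cell protease, was higher in Trib1 hi (23607 ± 4093 against 1385 ± 22.4) and Mcpt8, a basophil protease, lower (2872 ± 219.8 against 4980 ± 321, SD, n = 4 each). Their part in the results on PI3K genes was not tested.

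Of the 8 members bright enough to test, 1 was called higher in Trib1 hi and 5 lower, against a background of 11.1% of all tested genes called higher and 19.7% called lower. Pik3cd, the delta catalytic subunit, rose, while Pik3r1, the main regulatory subunit, Pik3cb, Pik3ap1 and, by less, Pik3ca and Pik3cg fell. Pik3r2 and Inpp5d were not called and Pik3r5 was too dim to test. In 6 of the 8 no array of one group overlapped the other group, where 29.3% of all tested genes showed such a separation. The median difference of the 8 was -0.77, beside 0.04 over all tested genes. Among genes with a mean intensity over 500, where 26.3% of 5326 were called higher and 33.2% lower, 1 of 7 members was higher and 5 lower, with a median of -0.41 beside -0.03.

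**Figure D1:**
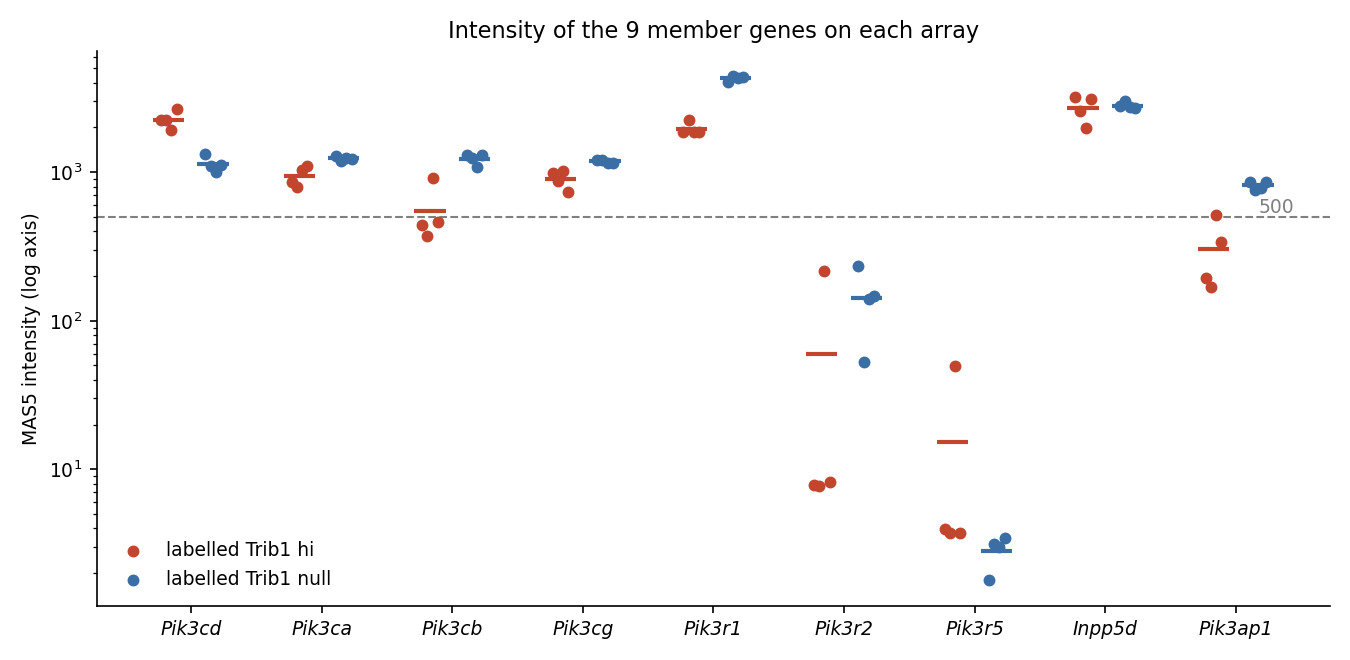
MAS5 intensity (log axis, arbitrary units) of the brightest probe set of each of the 9 genes on every array, with Trib1 hi left of Trib1 null, horizontal bars at group means and a line at 500. Pik3cd sits higher on all 4 Trib1 hi arrays, Pik3r1 lower on all 4, and Inpp5d overlaps between the groups.

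Pik3cd, on chromosome 4, encodes p110 delta, the catalytic subunit that serves cytokine and antigen receptors in white blood cells. Its brightest probe set, 1453281_PM_at, read 2239, 2233, 1917 and 2662 on the Trib1 hi arrays, against 1318, 1108, 1009.7 and 1114 on the Trib1 null arrays. The lowest Trib1 hi array lay above the highest Trib1 null array, and Trib1 hi 3 was the lowest of its group. Mean intensity was 2263 ± 306 in Trib1 hi and 1138 ± 129.6 in Trib1 null (SD, n = 4 each), a 1.99-fold increase. The difference was 0.99 (SE 0.11, 95% interval 0.76 to 1.22, adjusted p = 1.42e-08), larger than 92.3% of all differences. It was 1.05 after quantile normalisation, and leaving out any 1 array gave adjusted p-values from 1.29e-13 to 6.43e-05. Among 1428 genes of like signal the median difference was -0.05, and 3.78% had a larger one than Pik3cd. An exact permutation test over the 70 splits of the arrays gave p = 0.0286, the smallest it can give, and the same value for Pik3ca, Pik3cb, Pik3cg, Pik3r1, Pik3ap1 and, higher in Trib1 hi at the bottom of the scale, Pik3r5. It gave 0.114 for Pik3r2 and 0.771 for Inpp5d.

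The remaining 2 probe sets of Pik3cd were dim, and neither was called. Probe set 1422992_PM_s_at read 16.1, 50.4, 499.9 and 160.2 in Trib1 hi and 167, 26.6, 96.9 and 114 in Trib1 null, a difference of 0.12 with an adjusted p of 0.964 over all 19322 probe sets tested, of which 9.05% were called higher and 17.2% lower. Probe set 1422991_PM_at read 6.38, 6.87, 123 and 5.16 in Trib1 hi and 3.53, 3.92, 4.43 and 3.81 in Trib1 null (difference 1.37, adjusted p = 0.377). Its groups did not overlap, at the bottom of the scale, and array Trib1 hi 3 stood far above the rest. After quantile normalisation these differences became 1.61 (adjusted p = 2.09e-06) and 1.05 (adjusted p = 0.00160). The bright probe set alone was called in the same fit (adjusted p = 2.70e-07). When a gene was represented by the mean of its probe sets in place of the brightest, Pik3cd was no longer called (difference 0.83, adjusted p = 0.495), the only alternative to end its call in a range of 1.29e-15 to 0.495.

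**Figure D2:**
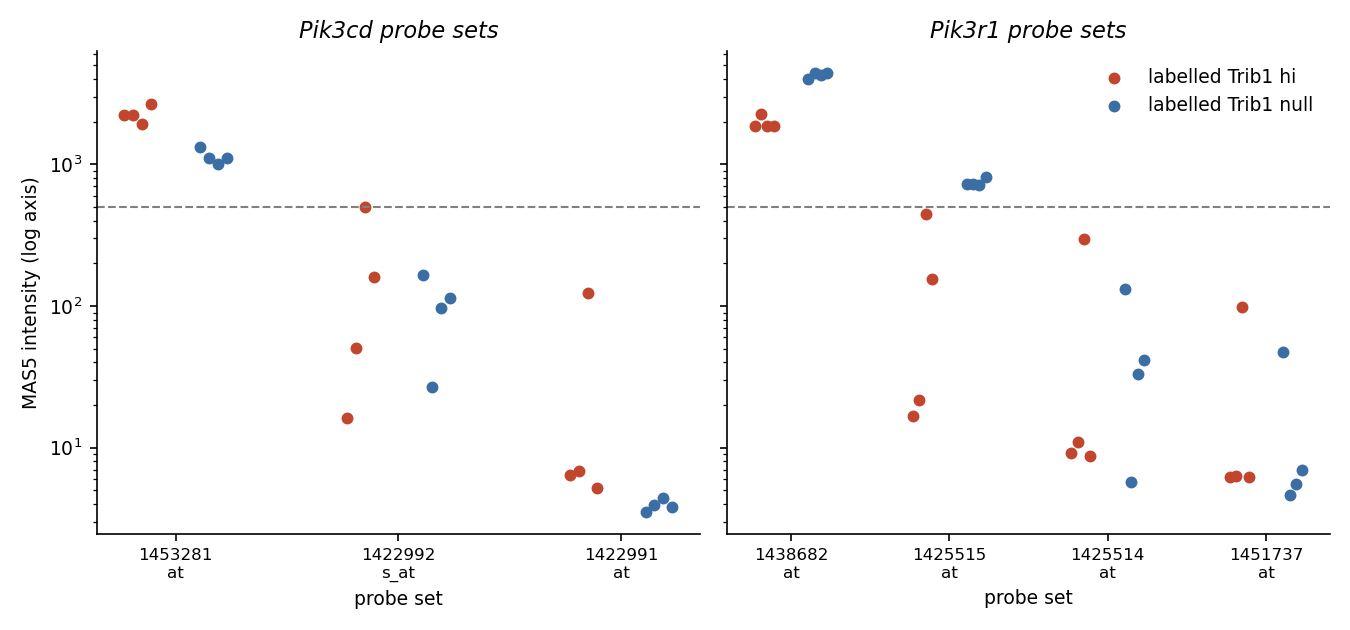
MAS5 intensity (log axis, arbitrary units) of the 3 Pik3cd and 4 Pik3r1 probe sets on every array, with Trib1 hi left of Trib1 null and a dashed line at 500. The groups separate in the brightest set of each gene, in Pik3r1 1425515_PM_at and, at the bottom of the scale, in Pik3cd 1422991_PM_at, and in the sets below the brightest array Trib1 hi 3 reads highest of its group.

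Pik3ca, on chromosome 3, encodes p110 alpha, the widely expressed catalytic subunit that acts below receptor tyrosine kinases. It read 863, 789.7, 1027 and 1097 in Trib1 hi, against 1289.6, 1181, 1249 and 1229 in Trib1 null, with no overlap. Mean intensity was 944 ± 142 in Trib1 hi and 1237 ± 45.1 in Trib1 null (SD, n = 4 each), 1.32-fold lower, and the difference was -0.40 (SE 0.13, 95% interval -0.66 to -0.14, adjusted p = 0.0148). After quantile normalisation it was -0.23 (adjusted p = 0.00738). Among 1348 genes of like signal, 31.6% had a more negative difference. The call ended without Trib1 hi 1 (adjusted p = 0.0597), without Trib1 hi 2 (0.0750), without a mean-variance trend (0.0862), without shared variance (0.141) and with the mean of its probe sets (0.567). Of its other 5 probe sets, 4 were tested, with differences of -0.12 to -0.71 and no call (adjusted p from 0.240 to 0.749). After quantile normalisation these 4 differences were positive (0.18 to 0.25), opposite to that of the brightest set. Of them, 1423144_PM_at (adjusted p = 0.0236) and 1429434_PM_at (0.0417) were then called higher.

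Pik3cg, on chromosome 12, encodes p110 gamma, which is activated by G protein beta-gamma subunits below chemokine receptors. It read 985, 874, 1017 and 733 in Trib1 hi, against 1214, 1217, 1155 and 1159.8 in Trib1 null, again with no overlap. Mean intensity was 902 ± 128 in Trib1 hi and 1186 ± 33.4 in Trib1 null (SD, n = 4 each), 1.33-fold lower, and the difference was -0.41 (SE 0.13, 95% interval -0.67 to -0.14, adjusted p = 0.0153). It was -0.23 after quantile normalisation (adjusted p = 0.0368) and -0.24 with a floor of 1000. Its second probe set, 1422708_PM_at, moved the same way, with 603, 561, 907 and 756 in Trib1 hi and 964, 934, 870.4 and 1208 in Trib1 null (difference -0.51, adjusted p = 0.0251 over all probe sets), although array Trib1 hi 3 there exceeded the lowest Trib1 null array. That call ended after quantile normalisation (-0.22, adjusted p = 0.0808), with no filter (0.102), without a mean-variance trend (0.159), without shared variance (0.197), with a floor of 1000 (-0.068, adjusted p = 0.324), and without Trib1 hi 1 (0.104), Trib1 hi 2 (0.107) or Trib1 null 4 (0.128). The call of the brighter set ended without Trib1 hi 4 (adjusted p = 0.0982), without a mean-variance trend (0.0786) and without shared variance (0.135). Among 1330 genes of like signal, 32.5% had a more negative difference. The added bioC controls, of about the same signal as Pik3ca and Pik3cg, differed by -0.34, -0.33, -0.016 and 0.20 in 4 probe sets, with overlap in each. The dap controls r2-Bs-dap-5 and DapX-M, also of near signal, differed by -0.84 and -0.68, both without overlap. Those falls exceed the ones of Pik3ca and Pik3cg, but at like signal the controls differed by transcript. The brighter r2-Bs-dap-3 (2097 in Trib1 hi, 2963 in Trib1 null) differed by -0.50. BioDn-5 (2170 and 1925 in the same groups) differed by 0.16. What sets the dap controls apart was not tested.

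Pik3cb, on chromosome 9, encodes p110 beta, the other widely expressed catalytic subunit, which responds to both receptor tyrosine kinases and G proteins. Its single probe set read 441, 373, 912 and 464 in Trib1 hi, against 1307, 1242, 1089 and 1297 in Trib1 null. Array Trib1 hi 3 came nearest to the Trib1 null arrays without reaching them, while the other Trib1 hi arrays lay below 500. Mean intensity was 548 ± 246 in Trib1 hi and 1234 ± 100.4 in Trib1 null (SD, n = 4 each), at least 2.12-fold lower. The difference was -1.26 (SE 0.19, 95% interval -1.64 to -0.87, adjusted p = 2.93e-06), and it was -1.53 without Trib1 hi 3. Without shared variance the call ended (adjusted p = 0.0993, in a range from 3.14e-12). Among 1213 genes of like signal, 8.24% had a more negative difference.

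**Figure D3:**
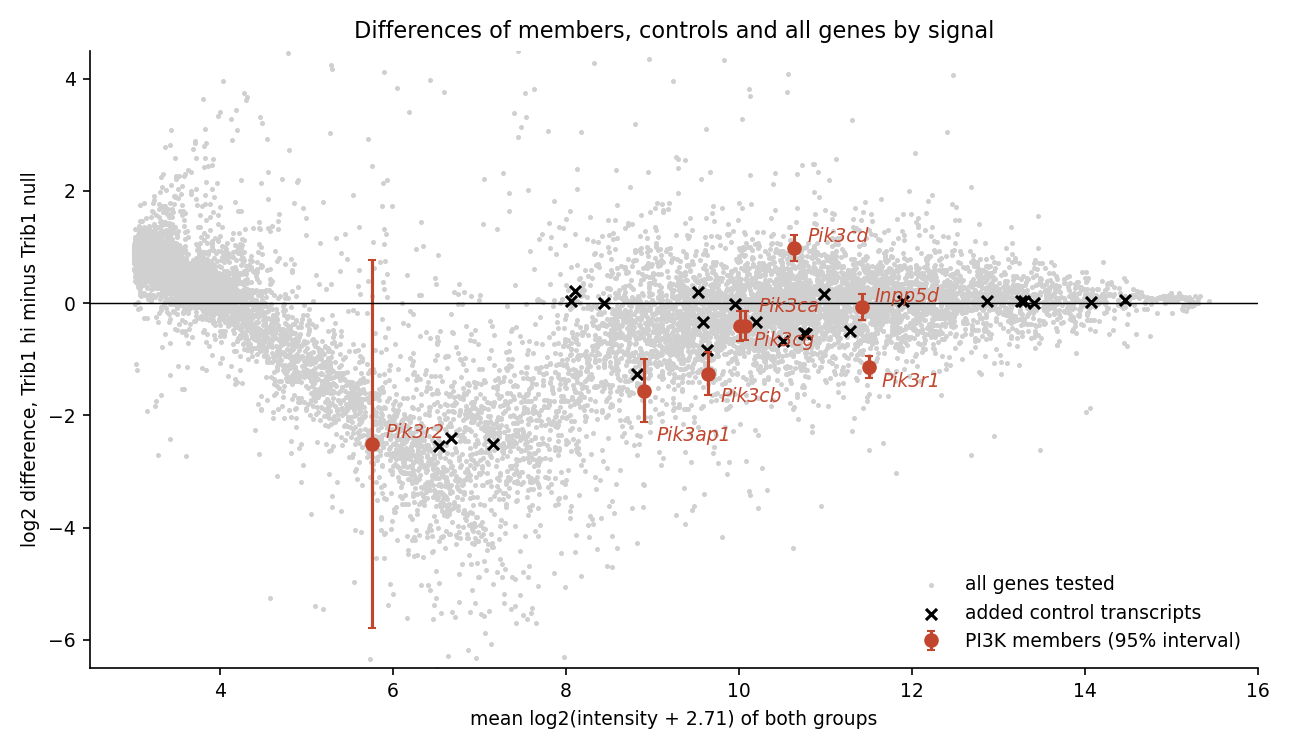
Log2 difference, Trib1 hi minus Trib1 null, against the mean log2 intensity of both groups for all 12250 tested genes (grey), the added control transcripts (crosses) and the 8 tested members (red, with 95% intervals). The cloud and the r2 bioB controls dip below 0 at low signal, where Pik3r2 lies. The BioB controls (0.01 to 0.21) do not, although their Trib1 null means (254 to 346) were like those of the r2 bioB controls (227 to 340). Pik3cd lies at the upper and Pik3r1 at the lower side of the cloud at their signal. The 54 genes beyond the vertical axis are not drawn.

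Pik3r1, on chromosome 13, encodes p85 alpha with its shorter forms, which hold and stabilise the alpha, beta and delta catalytic subunits. Its brightest probe set, 1438682_PM_at, read 1854, 2252, 1874 and 1855 in Trib1 hi, against 4035, 4444, 4304 and 4394 in Trib1 null. The groups stood far apart, and 3 of the 4 Trib1 hi arrays read almost alike. Mean intensity was 1959 ± 196 in Trib1 hi and 4294 ± 182 in Trib1 null (SD, n = 4 each), 2.20-fold lower. The difference was -1.14 (SE 0.09, 95% interval -1.33 to -0.95, adjusted p = 1.07e-11), -1.19 after quantile normalisation, and 3.37% of 1157 genes of like signal had a more negative difference. Of its other probe sets, 1425515_PM_at fell with it, reading 16.6, 21.8, 449 and 154 in Trib1 hi and 722, 729, 719 and 821 in Trib1 null (difference -3.30, adjusted p = 0.000324). Its size rests on dim Trib1 hi values, since it was -1.46 after quantile normalisation and -0.58 with the floor of 500. That call ended without a mean-variance trend (adjusted p = 0.0844) and without shared variance (0.234). The dim sets 1425514_PM_at and 1451737_PM_at differed by -0.42 (adjusted p = 0.921) and 0.33 (0.916). With the mean of the 4 probe sets the gene was no longer called (adjusted p = 0.394), in a range from 6.93e-25.

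The other regulatory subunits were dim. Pik3r2, on chromosome 8, which encodes p85 beta, read 7.82, 7.78, 216 and 8.26 in Trib1 hi, against 234, 52.6, 139 and 147 in Trib1 null. Array Trib1 hi 3 lay among the Trib1 null arrays and the other 3 below them. The difference was -2.51 (SE 1.61, 95% interval -5.78 to 0.76, adjusted p = 0.291), and it passed the threshold without Trib1 hi 3 (-3.60, adjusted p = 0.00298) or after quantile normalisation (-0.91, adjusted p = 0.00132). Genes of like signal had a median difference of -2.02, and 28.3% of 630 had a more negative one. Pik3r5, on chromosome 11, which encodes the p101 partner of p110 gamma, read 3.99, 3.75, 49.4 and 3.70 in Trib1 hi and 1.79, 3.14, 2.99 and 3.45 in Trib1 null, at the bottom of the scale on every array, and was not tested.

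Inpp5d, on chromosome 1, encodes SHIP1, the phosphatase of blood cells that turns PIP3 into phosphatidylinositol 3,4-bisphosphate. It read 3201, 2568, 1974 and 3118 in Trib1 hi, against 2797, 2999, 2730.4 and 2703 in Trib1 null. The groups overlapped, with the lowest and the highest of the 8 values both on Trib1 hi arrays. Mean intensity was 2715 ± 568 in Trib1 hi and 2807 ± 134 in Trib1 null (SD, n = 4 each). The difference was -0.07 (SE 0.11, 95% interval -0.30 to 0.16, adjusted p = 0.725), and no alternative made a call (adjusted p from 0.209 to 0.895). The interval leaves out a change as large as that of Pik3cd or Pik3r1, but not a small change in either direction. Among 1177 genes of like signal the median difference was 0.06, and 40.1% had a more negative one than Inpp5d. Its dim second probe set was not called either (difference -1.40, adjusted p = 0.652).

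Pik3ap1, on chromosome 19, encodes BCAP, an adaptor that brings p85 to receptors in B cells and myeloid cells. It read 193, 169, 516 and 339 in Trib1 hi, against 865, 759.9, 785 and 858 in Trib1 null. The groups did not overlap, and only Trib1 hi 3 reached 500 in its group. Mean intensity was 304 ± 160.0 in Trib1 hi and 817 ± 52.5 in Trib1 null (SD, n = 4 each), at least 1.62-fold lower. The difference was -1.56 (SE 0.28, 95% interval -2.12 to -0.996, adjusted p = 3.16e-05) and -0.95 after quantile normalisation. The call ended without shared variance (adjusted p = 0.116) and with the mean of its 2 probe sets (0.641), the highest of its alternatives. Among 931 genes of like signal, 9.99% had a more negative difference. With the floor of 500, which takes away differences below it, the difference was -0.69. Added controls of near signal varied on the scale of the main test. DapX-5, at group means of 329 in Trib1 hi and 701 in Trib1 null, differed by -1.26, with overlap. The control r2-Bs-dap-5, at 609.6 in Trib1 hi and 1073 in Trib1 null, differed by -0.84 without overlap. BioB-M, at 353 in Trib1 hi and 346 in Trib1 null, differed by 0.006. The part of such shifts in the fall of Pik3ap1 was not tested. Its dim second probe set, 1421285_PM_at, read 6.33, 7.37, 111 and 5.53 in Trib1 hi and 73.1, 5.58, 6.23 and 6.22 in Trib1 null. That set differed by 0.19 and was not called (adjusted p = 0.954 over all probe sets).

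Ratios between members on the same array do not depend on a scaling factor for that array, although shifts that vary with signal stay in them. The level of such a ratio has no meaning, since it sets 1 probe set against another, but its change between groups does. Over the 5 members above 500 on every array, the log2 ratio of Pik3cd to Pik3r1 was 0.27, -0.013, 0.03 and 0.52 in Trib1 hi, against -1.61, -2.001, -2.09 and -1.98 in Trib1 null. The means differed by 2.12 on the log2 scale, with no overlap. The ratios of Pik3cd to Pik3ca (1.39), Pik3cg (1.39) and Inpp5d (1.06) were also higher in Trib1 hi, each without overlap. The ratio of Pik3r1 to Inpp5d averaged -0.45 ± 0.37 in Trib1 hi and 0.61 ± 0.08 in Trib1 null (SD, n = 4 each), a difference of -1.06 without overlap. The ratio of Pik3ca to Pik3cg changed by 0.0045, and those of both to Inpp5d by -0.33, with overlap in all 3.

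**Figure D4:**
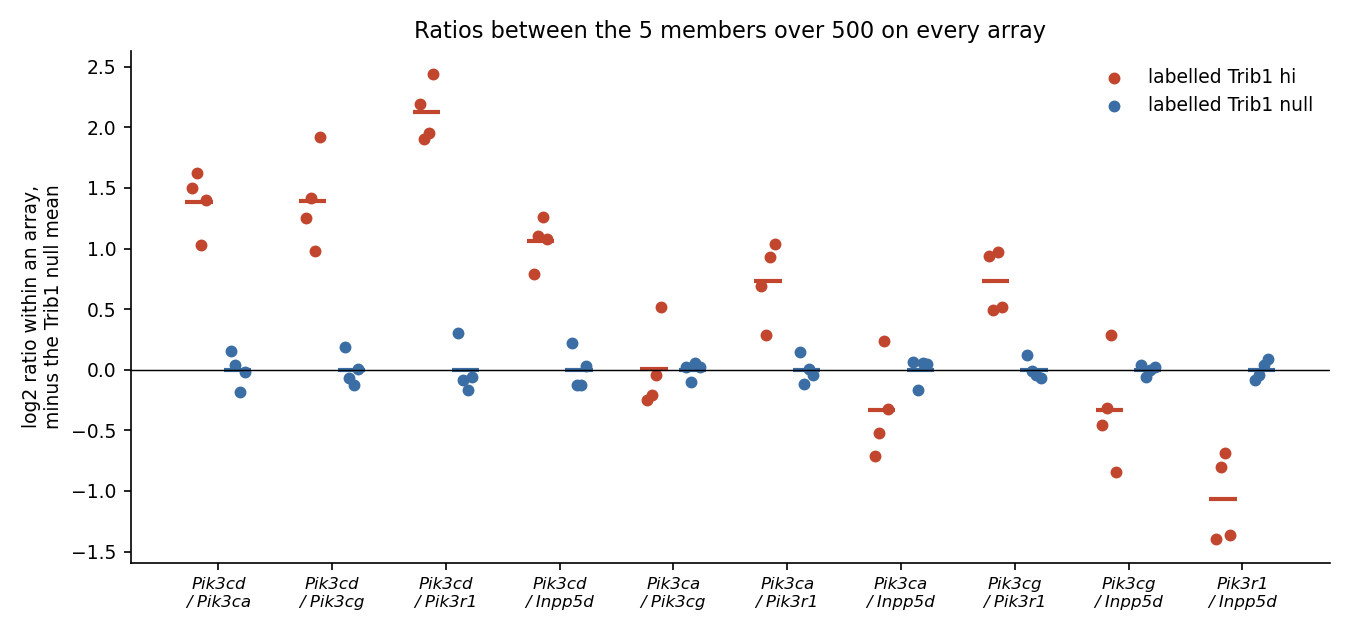
Log2 ratio between each pair of the 5 members above 500 on every array, minus the Trib1 null mean of that pair, 1 point per array with bars at group means and Trib1 hi left of Trib1 null. The widest gap is that of Pik3cd over Pik3r1, at 2.12, and the 3 pairs among Pik3ca, Pik3cg and Inpp5d overlap.

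Pik3cd and Pik3r1, the members with opposed changes that stood furthest from genes of like signal, have several annotated starts. The promoters below run from 250 bases before to 50 bases after each start (RefSeq, GRCm38.p6, 5′ to 3′ on the gene's strand), and capitals mark motif matches. They show what differs between the starts, because the arrays were not used to tell which start was active.
Pik3cd, first start, chr4:149698659-149698958, minus strand: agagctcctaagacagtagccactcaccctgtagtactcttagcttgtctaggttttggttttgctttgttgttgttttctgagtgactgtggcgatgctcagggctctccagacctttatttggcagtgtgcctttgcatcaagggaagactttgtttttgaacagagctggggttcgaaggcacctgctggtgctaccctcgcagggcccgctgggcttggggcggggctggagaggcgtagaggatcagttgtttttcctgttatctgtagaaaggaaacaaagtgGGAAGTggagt
Pik3cd, second start, chr4:149676040-149676339, minus strand: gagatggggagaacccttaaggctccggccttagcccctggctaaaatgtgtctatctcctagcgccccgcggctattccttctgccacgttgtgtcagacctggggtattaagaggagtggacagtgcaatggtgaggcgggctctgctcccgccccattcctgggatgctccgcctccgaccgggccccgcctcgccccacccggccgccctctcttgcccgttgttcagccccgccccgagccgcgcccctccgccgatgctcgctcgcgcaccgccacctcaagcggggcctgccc
Pik3cd, last start, chr4:149663267-149663566, minus strand: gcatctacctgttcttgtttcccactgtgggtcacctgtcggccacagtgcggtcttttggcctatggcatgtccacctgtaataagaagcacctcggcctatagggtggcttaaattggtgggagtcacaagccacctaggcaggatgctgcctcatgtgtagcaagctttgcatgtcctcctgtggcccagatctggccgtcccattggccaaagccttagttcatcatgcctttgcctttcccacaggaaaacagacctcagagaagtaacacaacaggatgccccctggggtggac
Pik3r1, first start, chr13:101768168-101768467, minus strand: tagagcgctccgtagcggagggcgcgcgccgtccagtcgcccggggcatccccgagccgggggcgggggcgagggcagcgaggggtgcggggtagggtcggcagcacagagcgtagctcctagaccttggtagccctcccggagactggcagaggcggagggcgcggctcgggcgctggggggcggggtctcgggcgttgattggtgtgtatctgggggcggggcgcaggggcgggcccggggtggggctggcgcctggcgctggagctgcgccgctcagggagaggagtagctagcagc
Pik3r1, second start, chr13:101692581-101692880, minus strand: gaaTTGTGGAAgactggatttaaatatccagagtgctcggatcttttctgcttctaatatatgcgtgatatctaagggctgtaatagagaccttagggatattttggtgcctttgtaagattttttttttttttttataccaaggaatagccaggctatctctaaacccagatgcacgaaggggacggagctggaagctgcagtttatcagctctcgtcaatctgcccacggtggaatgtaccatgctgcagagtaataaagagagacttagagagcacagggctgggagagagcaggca

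The starts differ in base composition. For Pik3cd, GC content is 51.0%, 68.0% and 54.0% in the order shown, and for Pik3r1 it is 75.7% and 43.7%, beside a median of 52.7% over all 32851 promoters. Matches were sought on both strands for the ETS core GGAAGT, the C/EBP pattern TTNNGNAA and the HOX with PBX pattern TGATTNAT, whose matches may overlap. The first Pik3cd start holds an ETS core from base 290 of the stretch and the second Pik3r1 start a C/EBP match from base 4. Over the 13 promoters of all 9 members, 6 hold an ETS core, 3 a C/EBP match and 0 a HOX match, where 23.8%, 40.7% and 3.22% of all promoters do. The 2 Pik3cg promoters overlap and share their ETS cores, so 2 of the 6 count the same matches. A match is only a run of letters, and the arrays carry no reading of binding there.

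The genes whose pattern was most like that of Pik3cd were sought among 4465 genes above 500 on every array. Over the 8 arrays the highest Pearson correlations were with Tsc22d3 (0.997), a leucine zipper protein induced by glucocorticoids, Gtf3c4 (0.996), a subunit of transcription factor IIIC, Mcm2 (0.993), a subunit of the replicative helicase, Gstcd (0.990) and Mrps26 (0.988), a mitochondrial ribosomal protein. After each group's mean had been taken away, Tsc22d3 (0.983), Gtf3c4 (0.955), Mcm2 (0.932) and Gstcd (0.894) still led, followed by Wdr1 (0.881), a cofactor of actin disassembly. These are the highest of 4465 correlations over 8 arrays and describe likeness only. Against Pik3cd, Pik3r1 stood at -0.95, Pik3cg at -0.90, Pik3ca at -0.75 and Inpp5d at 0.016 over the same arrays. With group means taken away these became -0.25, -0.61, 0.24 and 0.64 in the same order.

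The wider pathway was read from gene lists sorted by role. Of 7 further PI3K subunits and kinases of other classes, 3 were tested, and all 3 were lower in Trib1 hi, with a median difference of -1.18, where 11.1% of all tested genes were called higher and 19.7% lower. They were Pik3c3, the class III kinase of autophagy and endosomes (391, 373, 765 and 587 in Trib1 hi, against 1026, 943, 942 and 863 in Trib1 null, at least 1.63-fold lower, adjusted p = 0.000443), its partner Pik3r4 (adjusted p = 0.000544) and the class II kinase Pik3c2a (adjusted p = 3.94e-05). All 3 fell below 500 on some Trib1 hi arrays, and only 2 had a mean above 500.

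Of 14 tested phosphoinositide phosphatases, 1 was higher and 8 lower in Trib1 hi, with a median of -1.15. Restricted to the 7 with a mean above 500, the counts were 1 higher and 3 lower, near the 26.3% and 33.2% of all genes over 500. Over all tested genes those shares are 11.1% and 19.7%. Inpp5b, a 5-phosphatase of endosomes and Golgi, was higher, at 2719, 3035, 2290 and 2936 in Trib1 hi against 2041, 2242, 2181 and 2147 in Trib1 null (1.27-fold, adjusted p = 0.00647). Inpp5k was at least 1.88-fold lower (adjusted p = 1.58e-05), Synj1, the synaptojanin of clathrin uncoating, 1.26-fold lower (adjusted p = 0.00896), and the 3-phosphatase Mtmr6 1.18-fold lower (adjusted p = 0.0355).

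Of 25 tested receptors and adaptors upstream of PI3K, 4 were higher and 7 lower (median -0.17), and of the 13 with a mean above 500, 2 were higher and 5 lower. These counts lie near the shares over all tested genes (11.1% and 19.7%) and over those above 500 (26.3% and 33.2%). Dok2, an adaptor that restrains RAS and AKT signalling in myeloid cells, read 742, 717, 1003 and 733 in Trib1 hi, against 1756, 1628, 1792 and 1637 in Trib1 null, with no overlap and a 2.15-fold decrease (adjusted p = 1.17e-08). Its relative Dok3 was at least 1.44-fold lower (adjusted p = 0.000105) and the small GTPase Rras at least 1.99-fold lower (adjusted p = 2.07e-05). Gng2, a G protein gamma subunit, was at least 1.30-fold higher, with 561, 513, 913 and 682 in Trib1 hi against 327, 218, 264 and 226 in Trib1 null (adjusted p = 0.000246). With intensities under 500 set to 500 its adjusted p was 0.0638.

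Of 35 tested kinases and effectors downstream of PIP3, 6 were higher and 12 lower (median -0.30), beside 11.1% and 19.7% of all tested genes. Of the 23 with a mean above 500, 6 were higher and 9 lower, near the 26.3% and 33.2% of all genes over 500. Eif4ebp1, the translational repressor that mTOR complex 1 phosphorylates, was 2.29-fold higher, with 8920, 8884, 6048 and 8391 in Trib1 hi against 3326, 3677, 3693 and 3225 in Trib1 null (adjusted p = 1.28e-10). Vav1, a RAC exchange factor of blood cells, read 350, 492, 687 and 618 in Trib1 hi, against 1217, 1401, 1210 and 1338 in Trib1 null, at least 2.26-fold lower (adjusted p = 1.91e-07). Prex1, a RAC exchange factor that responds to PIP3 and G protein beta-gamma, was at least 1.65-fold lower (adjusted p = 7.72e-05). Mtor was at least 1.39-fold lower (adjusted p = 0.00577). Akt1 was not called, at 737, 738, 979 and 713 in Trib1 hi and 748, 548, 692 and 568 in Trib1 null (adjusted p = 0.199), but was called higher after quantile normalisation (adjusted p = 2.75e-05).

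The last list held FOXO factors and genes that are repressed when AKT is active. Of 21 tested, 2 were higher and 9 lower in Trib1 hi (median -0.53), and of the 16 with a mean above 500, 2 were higher and 7 lower, beside 11.1% and 19.7% of all tested genes and 26.3% and 33.2% of those above 500. Cdkn1b, the cell cycle inhibitor p27, read 1139, 1277, 1512 and 1193 in Trib1 hi, against 2701, 2682, 2579 and 3023 in Trib1 null, a 2.15-fold decrease without overlap (adjusted p = 2.25e-10). Sesn1, a sestrin that restrains mTOR complex 1, read 844, 737, 1147 and 967 in Trib1 hi, against 2180, 2055, 2175 and 2081 in Trib1 null, 2.33-fold lower (adjusted p = 6.66e-10). Rbl2, the pocket protein p130, was at least 3.23-fold lower, with 454, 373, 710 and 537 in Trib1 hi against 1726, 1920, 1721 and 1831 in Trib1 null (adjusted p = 1.90e-11). Gadd45a, a stress-induced growth arrest gene, moved the other way, with 3247, 3392, 2681 and 2944 in Trib1 hi against 800, 387, 699 and 649 in Trib1 null, at least 4.68-fold higher (adjusted p = 2.79e-14). Each of these 4 genes also answers to regulators other than FOXO. After quantile normalisation the 5 lists in the order given held 0, 2, 5, 10 and 3 genes called higher and 3, 11, 12, 15 and 14 called lower, where 27.4% of all tested genes were called in each direction.

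**Figure D5:**
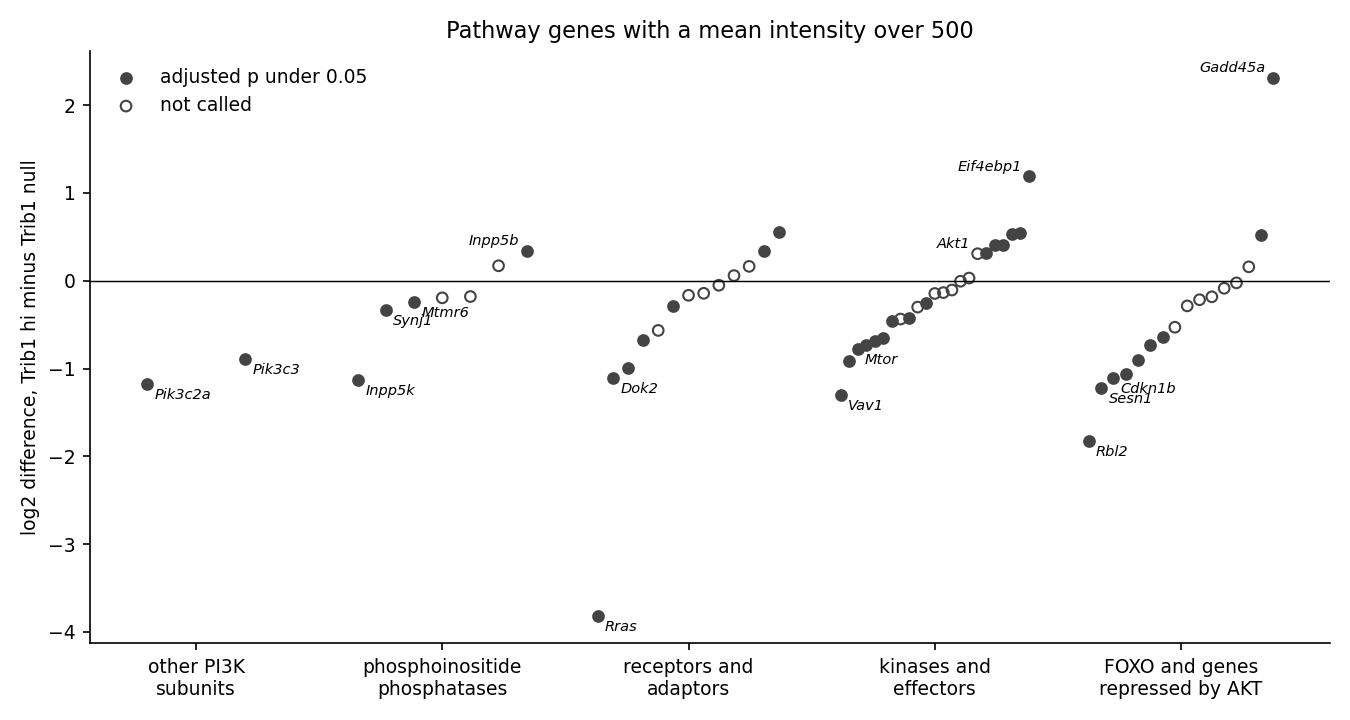
Log2 difference, Trib1 hi minus Trib1 null, of the genes of the 5 pathway lists with a mean intensity over 500, sorted within each list, with filled points for genes at an adjusted p under 0.05. Lower calls outnumber higher calls in each of the 5 lists, as they do over all genes above 500 (33.2% lower, 26.3% higher), and Gadd45a and Eif4ebp1 are the highest points.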

How the data were processed

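Total RNA was measured on 8 Affymetrix mouse arrays, grouped as Trib1 hi (4) and Trib1 null (4) by their titles. The authors deposited linear intensities for 45141 probe sets, made with MAS5 per the submitters' processing notes; its version, parameters and detection calls were not used here, and no genome build is named. Gene symbols came from the platform annotation, and promoters from RefSeq. The tested values were log2(intensity + 2.71), 2.71 being the 25th percentile of all values, for genes whose mean exceeded 3.01, the 40th percentile. limma 3.58.1 in R 4.3.3 (lmFit, eBayes with trend), tested on simulated data, gave two-sided p-values adjusted by Benjamini-Hochberg over all 12250 genes, or 19322 probe sets. Members, lists, alternatives and the floor of 500 were chosen with earlier results of these data known. Named list genes are the up to 4 per list with the largest called difference without overlap and a group mean above 500, plus Akt1, Mtor, Trib1 and Hoxa9. Likeness names the 5 highest correlations. Alternatives were other scalings, pseudocounts, filters, floors, probe set summaries, variance models, a replicate block and leaving out each array. Precision is limited by having 4 arrays a group.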

Additional observations from a re-analysis of the deposited data

Results flagged for a closer look

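Of 22 groups of 4 arrays tested, 5 held 1 array set far apart from the others by Dixon's criterion, which chance meets in about 1 of 20 groups. In 4 of the 5 the array was Trib1 hi 3, whose dim signals were higher than those of the other Trib1 hi arrays. Pik3cb read 912 on Trib1 hi 3, beside 373 to 464 on the other Trib1 hi arrays. The dim Pik3cd probe set 1422991_PM_at read 123 on Trib1 hi 3, beside 5.16 to 6.87. Pik3r2 read 216 there, beside 7.78 to 8.26, and Pik3r5 read 49.4, beside 3.70 to 3.99. In the fifth, the brightest Pik3r1 probe set read 2252 on Trib1 hi 2, beside 1854 to 1874 on the other Trib1 hi arrays.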

How the results depend on the processing

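The increase of Pik3cd and the decrease of Pik3r1 kept their direction under every alternative run and their calls under all but the mean of a gene's probe sets. The member counts of 1 higher and 5 lower became 0 and 2 with that mean. The count of lower members was 3 without a mean-variance trend and 1 without shared variance, and leaving out 1 array gave 4 to 6 lower and 1 higher each time. Over all genes the counts of 1363 higher and 2409 lower became 725 and 1317 with the mean of probe sets, 803 and 850 without shared variance, 3357 higher after quantile normalisation, 1274 lower without a trend and 1420 lower with a floor of 1000, an alternative chosen after seeing the data. Leaving out 1 array gave 1153 to 2103 higher and 1964 to 3768 lower, both highest without Trib1 hi 3. Quantile normalisation turned 3 probe sets to higher, 1423144_PM_at (0.24) and 1429434_PM_at (0.25) of Pik3ca and 1425514_PM_at (1.01) of Pik3r1. The causes were not tested. Whether replicate numbers pair the arrays is not stated. Deviations from group means of same-numbered arrays correlated at -0.51 to 0.49, and at -0.30 to 0.31 among genes with a mean over 500. Differently numbered arrays reached 0.65 (Trib1 hi 3 with Trib1 null 1), so these correlations cannot decide it. With the replicate number as a block, 1 member was higher and 5 lower, and 1284 and 2346 of all genes. Signals near the bottom of the scale, as for Pik3r2, Pik3r5 and the dim probe sets, cannot be compared between groups with these arrays.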
